A study of Mus musculus with 2 samples.

Results

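Natural killer (NK) cells of the mouse spleen differ in which inhibitory receptors they carry. The cells compared here were 390 Klrc1-only cells, with transcripts of Klrc1 and of none of 6 Ly49 genes, and 4613 Ly49-only cells, with at least 2 of the 6 Ly49 genes and no Klrc1. They were chosen by their Klrc1 and Ly49 transcripts from 7950 gated NK cells in a library of 16384 barcodes. All cells came from spleens of wild-type mice, and no mutant or treated cells are part of the comparison. NK cells were enriched by removing other cell types with antibodies, and were sequenced with droplet-based 3′ single-cell chemistry. Cells of different mice carried lipid tags, and 3 tags are in the deposited counts. The labels give 2 samples in 1 group, of which 1 was analysed here, and do not say that a tag stands for a single mouse. Age, sex and strain of the mice are not given in the labels.

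Single-tag cells entered the gate when they held a unique molecular identifier (UMI, a counted transcript) of at least 2 of Ncr1, Klrb1c and Klre1 and none of Trac or Cd79a. Each cell was then thinned at random to 2500 UMIs, so that deep and shallow cells had the same chance of showing a receptor. The 6 Ly49 genes were Klra1, Klra3, Klra4, Klra7, Klra8 and Klra9. Klrc1-only cells made up 4.93% ± 0.702 of the gated cells of a tag and Ly49-only cells 57.8% ± 5.56 (SD, n = 3 tags). By tag 1, 2 and 3 there were 110, 139 and 141 Klrc1-only cells, against 1499, 1851 and 1263 Ly49-only cells. A further 1871 cells held Klrc1 and at least 2 Ly49 genes, 232 held neither, and 844 held exactly 1 Ly49 gene. The median depth was 5064 UMIs in Klrc1-only cells and 4183 UMIs in Ly49-only cells.

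Klrc1 encodes NKG2A, which pairs with CD94 (Klrd1) into an inhibitory receptor for Qa-1b (H2-T23), a non-classical class I molecule that presents leader peptides of other class I molecules. The Ly49 family binds class I molecules or viral look-alikes directly. Ly49A (Klra1), Ly49C (Klra3), Ly49G (Klra7) and Ly49I (Klra9) are inhibitory, while Ly49D (Klra4) and Ly49H (Klra8) are activating receptors that signal through adaptors. NKG2A appears early in NK development, and Ly49 genes are switched on later, each in a part of the cells, so that NK cells of a mouse carry many combinations. Type 1 innate lymphoid cells (ILC1) share many NK genes, and many of them carry NKG2A and lack most Ly49 receptors.

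Both receptor families lie in the NK gene complex on chromosome 6. On GRCm38 the GENCODE M21 annotation places Klrc1 at chr6:129666015-129678973, Klra4 at chr6:130043731-130067271 and Klra8 at chr6:130115226-130129898, all on the minus strand. The promoters of these 3 genes are shown because they lie upstream of the transcripts that define the classes. They run from 250 bases before to 50 bases after the RefSeq gene start (GRCm38.p6, minus strand, 5′ to 3′), and capitals mark the longest run of letters that Klra4 and Klra8 share at the aligned position.
Klrc1: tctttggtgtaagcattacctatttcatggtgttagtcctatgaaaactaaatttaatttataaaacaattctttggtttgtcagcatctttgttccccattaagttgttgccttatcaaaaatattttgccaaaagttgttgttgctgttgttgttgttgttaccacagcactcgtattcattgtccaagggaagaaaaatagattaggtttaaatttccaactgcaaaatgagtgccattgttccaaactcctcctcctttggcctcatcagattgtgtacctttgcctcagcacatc
Klra4: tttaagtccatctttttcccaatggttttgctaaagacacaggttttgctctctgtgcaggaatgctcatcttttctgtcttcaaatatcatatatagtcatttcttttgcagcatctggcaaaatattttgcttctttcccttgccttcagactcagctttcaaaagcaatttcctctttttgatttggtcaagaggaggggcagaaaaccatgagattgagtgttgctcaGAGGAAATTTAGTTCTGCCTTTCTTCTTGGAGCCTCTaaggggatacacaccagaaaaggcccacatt
Klra8: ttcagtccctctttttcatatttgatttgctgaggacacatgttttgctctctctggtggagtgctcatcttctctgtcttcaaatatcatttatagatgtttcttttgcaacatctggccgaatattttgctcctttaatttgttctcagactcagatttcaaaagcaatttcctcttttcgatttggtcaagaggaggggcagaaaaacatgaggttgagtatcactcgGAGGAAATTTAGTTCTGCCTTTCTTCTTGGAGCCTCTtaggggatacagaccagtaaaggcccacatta
The Klra4 and Klra8 promoters were identical at 259 of 301 aligned positions (86.0%), with a shared run of 37 bases. Klrc1 shared 51.8% of aligned positions with Klra4 and 53.7% with Klra8. Whether these letters have a part in the classes was not tested.

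The genes of the rule are given as a description, since they chose the cells. Levels are CPM, the UMIs of a gene per 1000000 UMIs in all unthinned cells of a class and tag. Klrc1 stood at 640, 700.3 and 684 CPM in Klrc1-only cells of tags 1, 2 and 3, against 49.4, 43.1 and 54.3 CPM in Ly49-only cells. Klra4 stood at 17.0, 14.8 and 20.4 CPM in Klrc1-only cells, against 1912, 1932 and 2133 CPM in Ly49-only cells. Klra8 stood at 20.1, 25.8 and 25.5 CPM in Klrc1-only cells, against 1733, 1787 and 1662 CPM in Ly49-only cells. The residue of each gene in the class chosen to lack it comes from transcripts that thinning had dropped. Klrc1 reached 536 ± 44.2 CPM in cells with both receptors and 91.8 ± 21.2 CPM in cells with neither (SD, n = 3 tags). Of the gate genes, Klre1 was at 638 ± 66.4 CPM in Klrc1-only cells and 1203 ± 30.5 CPM in Ly49-only cells, and Ncr1 at 964 ± 109 CPM in Klrc1-only cells and 811 ± 37.7 CPM in Ly49-only cells.

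Within the classes, 219 Klrc1-only cells held at least 2 thinned Klrc1 UMIs and 171 held exactly 1. Ly49-only cells held 2 of the 6 genes in 1080 cells, 3 in 1848, 4 in 1334, 5 in 332 and all 6 in 19. The commonest Ly49 transcripts in Ly49-only cells were Klra8, in 79.1% of cells, and Klra4, in 77.6%. B cells in the same library, which should lack these genes, held a thinned Klra8 UMI in 10.9% of 376 cells and a Klra4 UMI in 8.24%, at a median of 4059 UMIs. The B cells were chosen to hold UMIs of Cd79a and Ms4a1 and none of Ncr1, Klrb1c or Klre1. Barcodes with stray NK transcripts may thus have been left out, so the B cell shares may understate the background. Shares up to the B cell level are read as background. Just inside the rule, the 171 cells with no Ly49 gene and 1 Klrc1 UMI had Klrc1 at 444 CPM, while the 232 cells just outside it, with neither, had 94.4 CPM. On the Ly49 side, the 1080 cells with 2 Ly49 genes just inside had Klra4 at 1286 CPM, and the 365 Klrc1-negative cells with 1 Ly49 gene just outside had 381 CPM. These gaps follow from the rule, since Klrc1 and Klra4 chose the cells. Gzma, which the rule did not use, was at 3210 CPM in the 171 cells and 1563 CPM in the 232. It was at 7611 CPM in the 1080 cells and 5710 CPM in the 365. An unthinned UMI of Il7r, Cxcr6, Itga1 or Tmem176b was held by 68.4%, 68.1%, 14.7% and 26.8% of these cells, in the same order.

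Close paralogs limit the counts of single receptors. Of the distinct 50-base words in the last 500 bases of annotated transcripts, 43.5% for Klrc1, 46.0% for Klra9, 31.5% for Klra3, 13.1% for Klra8 and 4.66% for Klra4 also occur in another gene of the 2 families. Klra7 shared none. Reads from shared stretches could not be assigned to 1 gene.

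Across all gated cells, Klrc1 was the less common the more Ly49 genes a cell held. A Klrc1 UMI was found in 63.6% ± 6.21 of cells with no Ly49 gene, 57.0% ± 6.16 with 1, 39.6% ± 6.15 with 2, 28.8% ± 6.29 with 3, 21.2% ± 5.20 with 4 and 20.7% ± 2.93 with 5 (SD, n = 3 tags). The steps from 1 to 2 Ly49 genes and from 2 to 3 were in the same direction in each tag, while the values at 4 and 5 did not differ beyond their spread. From 0 to 1 the share fell in tags 1 and 2 but rose in tag 3, from 58.5% to 64.1%. Only 22 cells held all 6. By gene, Klrc1 was found in 23.9% ± 4.70 of cells with Klra4 and 51.0% ± 4.82 of cells without it. The gap was smaller for Klra9, with 32.8% ± 5.05 of cells with it and 36.6% ± 5.61 of cells without it. These shares use the genes of the rule and are given with no test.

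**Figure D1:**
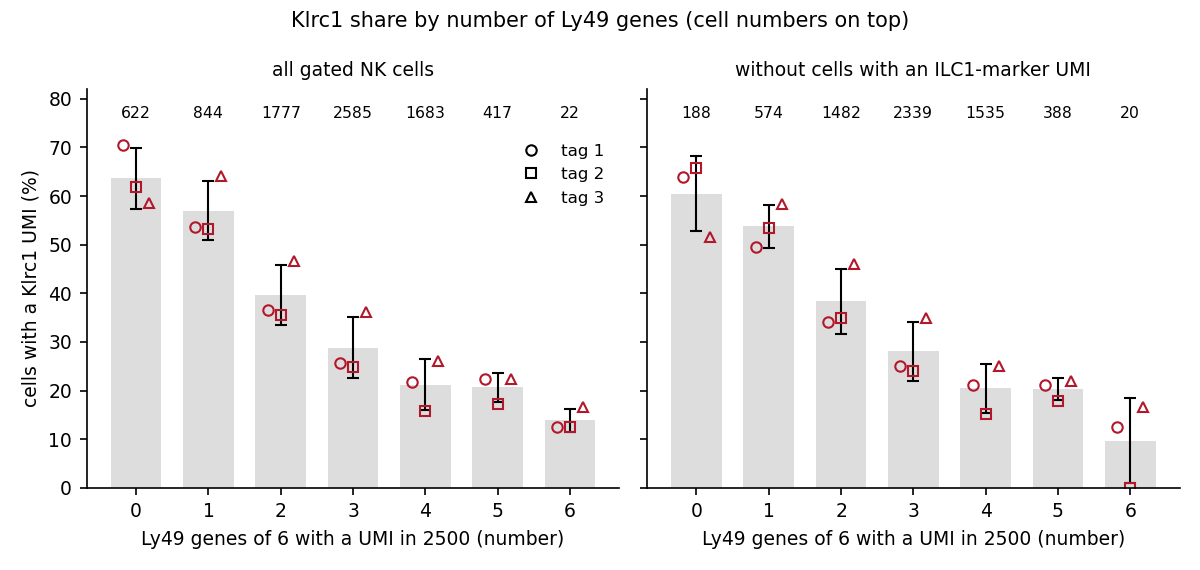
Share of gated NK cells with a Klrc1 UMI (vertical axis, %) by the number of 6 Ly49 genes with a UMI, among 2500 UMIs per cell (horizontal axis), for all cells (left) and without cells with an ILC1-marker UMI (right). Bars are means and error bars SDs over 3 tags, symbols are tags and cell numbers stand on top; the mean falls to 20.7% at 5 Ly49 genes, against 63.6% at 0.

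The Klrc1-only cells went against their label as NK cells in the markers of ILC1. All 10 of 10 ILC1 markers were higher in Klrc1-only than in Ly49-only cells in the edgeR test described below, in which 5.33% of all genes tested were higher. Their median log2 fold was 3.45, against a median of 0.0054 over all genes tested. Their summed level ranged from 1266 to 1536 CPM in Klrc1-only cells, against 122 to 142 CPM in Ly49-only cells, and none of the 10 was at 0 in either class. The list was chosen with earlier results of these data known, so the count of 10 is a description and not independent support. Il7r, the receptor for interleukin 7, stood at 578, 462 and 701 CPM in Klrc1-only cells and at 18.2, 21.3 and 35.8 CPM in Ly49-only cells (log2 fold 4.55 ± 0.11 SE, adjusted p = 8.5e-16). The classes do not overlap in any tag. A UMI of Il7r, Cxcr6, Itga1 or Tmem176b was present in 62.6% of thinned Klrc1-only cells (95% Clopper-Pearson interval 57.6 to 67.4) and in 5.90% of Ly49-only cells (5.23 to 6.62). The share was 9.57% in cells with both receptors, 54.7% in cells with neither, and 4.52% in the B cells. Before thinning it was 70.8% in Klrc1-only cells, 9.65% in Ly49-only cells and 6.91% in B cells. In Klrc1-only cells this share of cells with a marker is far above the B cell level, and it is near that level in Ly49-only cells. Most of the thinned share in Klrc1-only cells came from Il7r, which is also on the early NK list used below. By gene, 55.4% of them held Il7r, 21.8% Tmem176b, 12.1% Itga1 and 7.95% Cxcr6. In Ly49-only cells these shares were 3.17%, 1.34%, 1.43% and 0.520%. How many of the cells are ILC1 was not tested.

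Eomes and Itga2 are not on the ILC1 list, and Itga1 is. Eomes, a transcription factor of NK cells that ILC1 lack, had a thinned UMI in 21.5% of Klrc1-only and 55.3% of Ly49-only cells, against 2.39% of B cells. Itga1 (CD49a), a surface marker of ILC1, stood at 54.0, 71.4 and 79.0 CPM in Klrc1-only cells and 8.50, 8.51 and 6.87 CPM in Ly49-only cells (log2 fold 3.09 ± 0.23). Itga2 (CD49b), its NK counterpart, was lower in Klrc1-only cells, with a log2 fold of -0.89, and is named after its value was seen. The class is therefore called by its rule below, and each main count is also given without the 276 Klrc1-only and 445 Ly49-only cells that held a UMI of any of the 4 ILC1 markers before thinning. This left 114 Klrc1-only and 4168 Ly49-only cells.

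**Figure D2:**
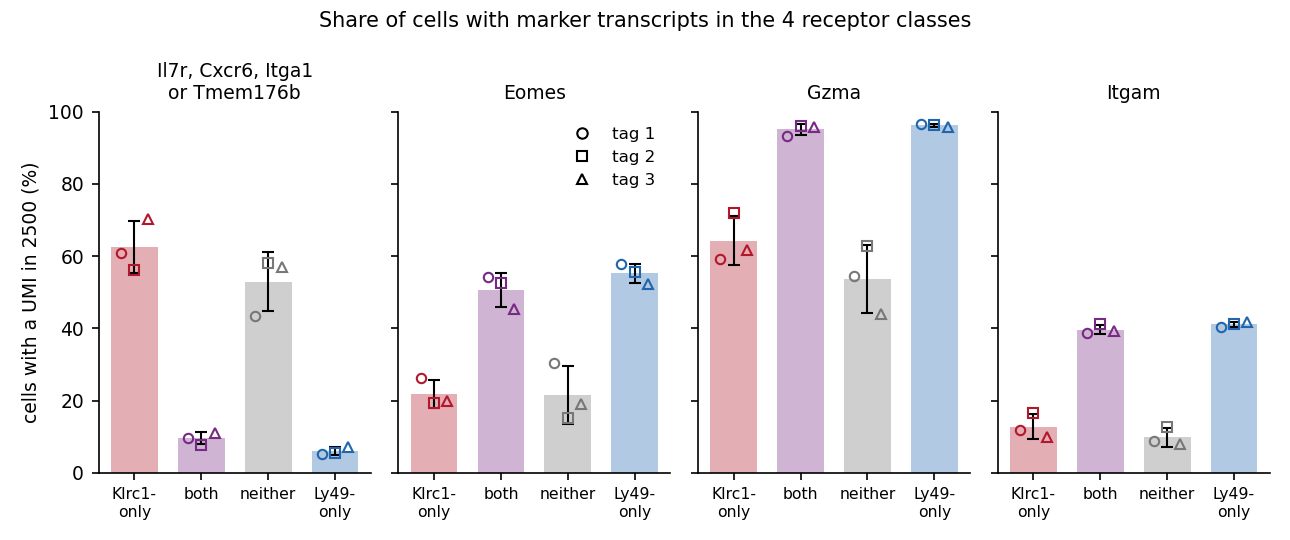
Share of cells (vertical axis, %) with a thinned UMI of any of 4 ILC1 markers, of Eomes, of Gzma and of Itgam in Klrc1-only cells, cells with both receptors, cells with neither and Ly49-only cells. Bars are means, error bars SDs over 3 tags and symbols tags; cells without Ly49 genes have more ILC1-marker and less Eomes, Gzma and Itgam transcript than cells with them.

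Markers of other lineages were called in both directions, where 5.33% of all genes tested were higher and 4.41% lower. Of 14 T cell markers 6 were tested, with Trbc2 and Trbc1 higher and Trdc lower in Klrc1-only cells, and their summed level ranged from 986 to 1188 CPM, against 768 to 798 CPM in Ly49-only cells. Cd5, Cd6 and Cd8a were at 0 in Klrc1-only cells. Of 8 B cell markers 5 were tested, with Cd22 higher and Igkc lower in Klrc1-only cells, and sums of 174 to 212 CPM in Klrc1-only cells, against 219 to 337 CPM in Ly49-only cells. Of 10 myeloid and dendritic markers 6 were tested and Lyz2 was lower, with sums of 223 to 1021 CPM against 453 to 801 CPM and Siglech at 0 in Klrc1-only cells. Of 8 erythroid and platelet markers 6 were tested and Car2 was higher, with sums of 391 to 619 CPM against 227 to 268 CPM. Of 82 ribosomal protein genes tested 11 were higher and 0 lower (median 0.12), and of 13 mitochondrially encoded genes 0 were called. The part of these markers in the differences below was not tested.

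To ask how the 2 classes differ beyond the genes of the rule, UMIs were summed per class and tag and compared by edgeR's quasi-likelihood test, blocked by tag, at a Benjamini-Hochberg adjusted p of 0.05. Of 10760 genes tested, 574 (5.33%) were higher and 475 (4.41%) lower in Klrc1-only than in Ly49-only cells. Without the cells with an ILC1-marker UMI, 54 of 10190 genes (0.530%) were higher and 47 (0.461%) lower, and 48 and 39 of these were called in the same direction with all cells. Of the 1049 genes called with all cells, 958 were tested without these cells, and 882 had the same sign. Only 114 of 390 Klrc1-only cells remain in that comparison, so a lost call there does not show that a difference is absent. Over all genes tested there, the median log2 fold was -0.041. The fold changes below are log2, Klrc1-only over Ly49-only, ± SE, and p-values are adjusted over all genes tested. The SE was derived from the test, as the absolute log2 fold over the square root of its F statistic, and is not an SD over tags. The tags belong to 1 library and may not be separate animals, so the p-values measure only the spread between tags, which may be technical. Without tag 1, 364 genes were higher.

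CD94, the partner of NKG2A, was lower in the cells chosen for Klrc1. Of 13 NKG2, CD94 and related lectin receptors tested, 4 were higher and 5 lower (median -0.10). Klrd1, the CD94 chain that NKG2A needs to reach the surface, stood at 694, 855 and 766 CPM in Klrc1-only cells, against 1065, 1034 and 1074 CPM in Ly49-only cells (-0.45 ± 0.07, adjusted p = 0.0003). Klrc2, the activating NKG2C, was at 341, 319 and 329 CPM in Klrc1-only cells and 411, 430 and 449 CPM in Ly49-only cells (-0.38 ± 0.08, adjusted p = 0.0024). Klrc3 fell by 0.67 ± 0.15 and Klrg1, an inhibitory receptor for cadherins on mature NK cells, by 1.35 ± 0.19. Klrk1, the activating receptor NKG2D, stood at 1168 ± 112 CPM in Klrc1-only cells and 1144 ± 62.9 CPM in Ly49-only cells (0.04 ± 0.07, adjusted p = 0.83), with overlapping ranges. For Klrd1 no difference was called without ILC1-marker cells (-0.06, adjusted p = 0.95), whereas Klrc2 kept its call there (-0.64 ± 0.14, adjusted p = 0.0058). Klrg1 (-0.57, adjusted p = 0.47) and Klrc3 (-0.89, adjusted p = 0.13) lost theirs, and of the 13 list members 1 was higher and 2 lower. Klrc1, Klrc2 and Klrc3 are close relatives, and 15.2% of the Klrc2 and 24.9% of the Klrc3 end words occur in another family member.

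Klrb1b moved the other way. This inhibitory receptor of the NKR-P1 family stood at 779, 772 and 738 CPM in Klrc1-only cells and at 207, 189 and 190 CPM in Ly49-only cells, a 3.90-fold difference (1.97 ± 0.07, adjusted p = 1.7e-13). A thinned UMI was present in 82.1% of Klrc1-only and 29.1% of Ly49-only cells, against 1.86% of B cells. Clec2i, a ligand gene of the same gene complex, was higher as well (1.08 ± 0.14), while Klri2, a lectin receptor that pairs with Klre1, was at 206 ± 27.9 CPM in Klrc1-only cells and 619 ± 46.4 CPM in Ly49-only cells (-1.57 ± 0.08). Without ILC1-marker cells Klri2 was called (-1.40 ± 0.16) and Clec2i was not (0.66, adjusted p = 0.31).

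Ly49 genes that the rule did not use were low in Klrc1-only cells too. Klra10 stood at 0, 6.15 and 2.55 CPM in Klrc1-only cells and at 27.9, 38.9 and 33.2 CPM in Ly49-only cells (-3.43 ± 0.38, adjusted p = 2.7e-06). Klra6 (-2.39 ± 0.34) and Klra5 (-2.55 ± 0.40), the Ly49F and Ly49E genes, were lower in 3 of 3 tags, and their transcript ends share no 50-base word with the others. For Klra10, 40.6% of the end words occur in another family member, so part of its signal may belong to the genes of the rule. Without ILC1-marker cells the folds were -1.88 for Klra10 and -1.73 for Klra6, with adjusted p-values of 0.056 and 0.13, and Klra5 had 2 UMIs in Klrc1-only cells.

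Cd226 led the other NK receptors. It encodes DNAM-1, an activating receptor for nectin-like ligands, and stood at 552, 610.4 and 617 CPM in Klrc1-only cells, against 69.0, 84.0 and 112 CPM in Ly49-only cells. The difference was 6.71-fold (2.77 ± 0.09, adjusted p = 7.9e-14), and a thinned UMI was present in 65.4% of Klrc1-only and 13.3% of Ly49-only cells, against 0.532% of B cells. Of 21 such receptors tested, 8 were higher and 5 lower (median 0.24). Cd160, a receptor for class I and HVEM, was at 367, 353 and 429 CPM in Klrc1-only cells and 102, 113 and 114 CPM in Ly49-only cells (1.81 ± 0.09). Cd7 (1.64 ± 0.08) and the costimulatory receptor Icos (1.79 ± 0.20) were higher as well. Tigit, Lair1, Crtam, Cd2 and Cd84 were the 5 lower genes, named for their count, with log2 folds between -1.26 and -0.39. Without ILC1-marker cells 2 of 20 receptors were higher and 1 lower (median -0.12). Cd226 (2.15 ± 0.17) and Cd7 (0.63 ± 0.14) were the higher ones, while Cd160 (0.58, adjusted p = 0.28) and Icos (0.98, adjusted p = 0.56) were not called.

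Signaling genes behind activating receptors were lower where they changed. Of 19 adaptors, kinases and phosphatases tested, 0 were higher and 8 lower (median -0.17). The kinase Fyn was at 410.3, 513 and 373 CPM in Klrc1-only cells and 723, 745 and 707 CPM in Ly49-only cells (-0.74 ± 0.08, adjusted p = 1.9e-06). Syk (-0.63 ± 0.10), Cd247, the zeta chain (-0.60 ± 0.10), and the adaptor Sh2d2a (-0.69 ± 0.11) were lower in 3 of 3 tags. Without ILC1-marker cells 0 of 19 were called by edgeR, with a median of -0.20. Over all genes tested in that comparison, 919 had an unadjusted p under 0.05.

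Several genes of cytotoxic granules were lower in Klrc1-only cells. Of 23 granule genes tested, 8 were lower and 3 higher (median -0.30). Gzma stood at 2585, 4021 and 1858 CPM in Klrc1-only cells and at 8822, 9300 and 8033 CPM in Ly49-only cells (-1.68 ± 0.11, adjusted p = 2e-09). Gzmb, the granzyme that triggers caspases, stood at 75.6, 132 and 66.3 CPM in Klrc1-only cells and 315, 336 and 318 CPM in Ly49-only cells (-1.81 ± 0.13), and the pore protein Prf1 at 337 ± 66.2 CPM in Klrc1-only cells and 801 ± 60.1 CPM in Ly49-only cells (-1.25 ± 0.08). Tnfsf10, the death ligand TRAIL that marks liver ILC1, was higher, with 43.2, 50.5 and 59.9 CPM in Klrc1-only cells and 7.02, 9.01 and 10.5 CPM in Ly49-only cells (2.54 ± 0.23). Without ILC1-marker cells only Gzmb (-0.99 ± 0.17) and the protease inhibitor Cst7 of this list were called, and Gzma (-0.47, adjusted p = 0.078), Prf1 (-0.42, adjusted p = 0.12) and Tnfsf10 (0.44, adjusted p = 0.94) were not. A thinned Gzma UMI was found in 64.6% of Klrc1-only cells, 96.2% of Ly49-only cells and 40.7% of B cells.

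Several cytokine genes were higher. Of 12 cytokine and chemokine genes tested, 5 were higher and 2 lower (median 0.16). Xcl1, a chemokine that attracts cross-presenting dendritic cells, was at 1205, 1285 and 1311 CPM in Klrc1-only cells and 361, 408 and 388 CPM in Ly49-only cells (1.72 ± 0.07, adjusted p = 8e-13). Ltb, lymphotoxin beta, was at 572 ± 46.2 CPM in Klrc1-only cells and 119 ± 14.7 CPM in Ly49-only cells (2.28 ± 0.09). Tnf was higher as well (2.17 ± 0.27), and Ifng, the main NK cytokine, was at 197, 123 and 182 CPM in Klrc1-only cells and 121, 98.8 and 109.6 CPM in Ly49-only cells (0.60 ± 0.11, adjusted p = 0.00063). Without ILC1-marker cells Ltb, at 314, 271 and 223 CPM in Klrc1-only cells and 86.4, 94.9 and 105 CPM in Ly49-only cells, and Ifng (0.70 ± 0.19, adjusted p = 0.047) were still called, and Xcl1 (0.43, adjusted p = 0.26) and Tnf (0.72, adjusted p = 0.86) were not.

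NK cells mature in the spleen from cells with CD27 to cells with CD11b (Itgam). Of 20 early NK genes, 12 were higher and 5 lower in Klrc1-only cells (median 0.77), and of 20 late NK genes, 1 was higher and 15 lower (median -0.99). Il7r, on the early list, is also an ILC1 marker. Leaving out ILC1-marker cells therefore also leaves out any early NK cells with Il7r. Itgam stood at 60.2, 80.0 and 49.7 CPM in Klrc1-only cells and at 214, 215 and 218 CPM in Ly49-only cells (-1.76 ± 0.12, adjusted p = 5.8e-09). Cma1, which encodes the protease chymase, was at 44.7, 62.8 and 26.8 CPM in Klrc1-only cells and 219.8, 222 and 193 CPM in Ly49-only cells (-2.23 ± 0.14). Cd27 was higher by 0.34 ± 0.11 (adjusted p = 0.048), and S100a4, a calcium-binding protein, was the late gene that was higher (2.65 ± 0.10). Without ILC1-marker cells 6 early genes were higher and 1 lower (19 tested, median 0.31), and 1 late gene was higher and 5 lower (20 tested, median -0.46). Cd27 was not called there (0.35, adjusted p = 0.66).

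The makeup of the classes by Cd27 and Itgam transcripts followed these levels. Cells with thinned Itgam and no Cd27 made up 9.10% ± 2.72 of Klrc1-only cells and 34.6% ± 0.619 of Ly49-only cells. Cells with Cd27 and no Itgam made up 23.2% ± 1.74 of Klrc1-only cells and 12.7% ± 0.562 of Ly49-only cells (SD, n = 3 tags). Most Klrc1-only cells, 64.0% ± 4.99, held neither transcript, against 46.3% ± 0.684 of Ly49-only cells. Without ILC1-marker cells, Itgam-only cells were 20.9% ± 1.84 of Klrc1-only cells and 35.5% ± 1.25 of Ly49-only cells. Cd27-only cells were 23.6% ± 1.60 of Klrc1-only cells and 12.2% ± 0.726 of Ly49-only cells there, close to the shares with all cells.

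**Figure D3:**
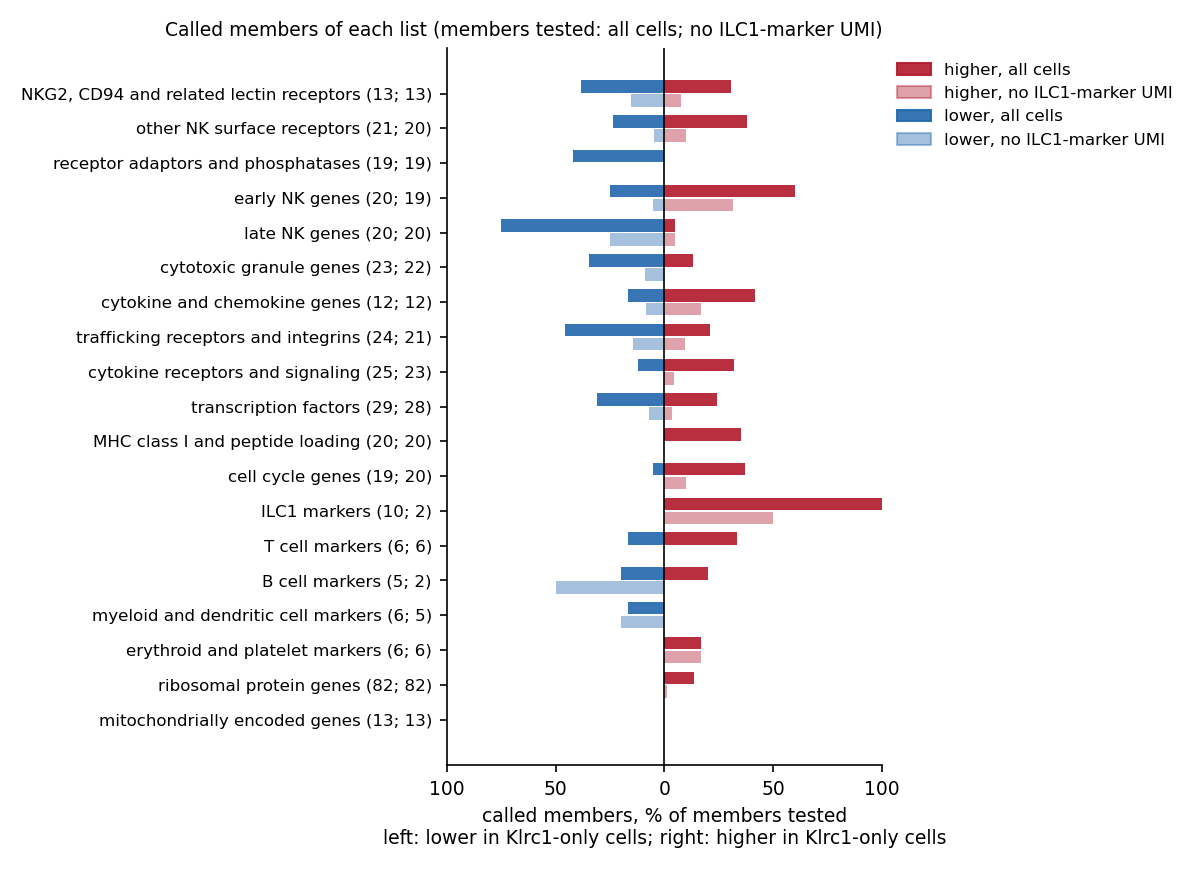
Share of the tested members of each gene list called lower (left, blue) or higher (right, red) in Klrc1-only than in Ly49-only cells, with all cells (dark) and without cells with an ILC1-marker UMI (light); horizontal axis in % of members tested, numbers tested in brackets. The late NK list has 15 of 20 members lower with all cells and 5 of 20 without ILC1-marker cells.

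Of 29 transcription factors tested, 7 were higher and 9 lower (median 0.03). Eomes stood at 148, 107 and 107 CPM in Klrc1-only cells and at 383, 339 and 321 CPM in Ly49-only cells (-1.53 ± 0.10, adjusted p = 9.4e-10). Tbx21 (T-bet), which NK cells and ILC1 both need, was slightly higher, at 242, 268 and 254 CPM in Klrc1-only cells and 196, 214 and 211 CPM in Ly49-only cells (0.31 ± 0.08, adjusted p = 0.018). Zeb2, a repressor that promotes late maturation, was at 338, 449 and 232 CPM in Klrc1-only cells and 859, 828 and 816 CPM in Ly49-only cells (-1.31 ± 0.11). Ikzf2, the zinc finger factor Helios, was at 309, 249 and 234 CPM in Klrc1-only cells and 33.3, 34.4 and 38.6 CPM in Ly49-only cells (2.90 ± 0.12), and Tcf7 (TCF-1), a factor of early NK cells, was higher by 0.60 ± 0.10. Irf8 was lower (-1.25 ± 0.10). Without ILC1-marker cells Ikzf2 (2.11 ± 0.23) and Zeb2 (-0.67 ± 0.14) were called, while Eomes (-0.50, adjusted p = 0.1), Tbx21 (-0.01, adjusted p = 0.99), Tcf7 (0.28, adjusted p = 0.75) and Irf8 (-0.52, adjusted p = 0.079) were not. Of 28 factors tested there, 1 was higher and 2 lower.

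Genes for movement and for cytokine sensing changed in both directions. Of 24 trafficking receptors and integrins tested, 5 were higher and 11 lower (median -0.39). Cxcr3, a chemokine receptor of inflamed tissue, was at 91.0, 111 and 108 CPM in Klrc1-only cells and 29.0, 31.8 and 33.8 CPM in Ly49-only cells (1.72 ± 0.13). Itga4, an integrin chain for VCAM-1, was at 602, 598 and 763 CPM in Klrc1-only cells and 1240, 1216 and 1429 CPM in Ly49-only cells (-0.98 ± 0.07), and both were still called without ILC1-marker cells (1.18 ± 0.30 and -0.82 ± 0.13). Of 25 cytokine receptor and signaling genes tested, 8 were higher and 3 lower (median 0.20). Il2ra, the high-affinity chain of the interleukin 2 receptor, was higher (3.48 ± 0.42), as was the feedback inhibitor Socs2 (3.22 ± 0.29), and the kinase Jak1 was lower (-0.55 ± 0.07). Without ILC1-marker cells 1 of 23 was higher and 0 were lower in edgeR. Socs2 was the higher one (3.61 ± 0.62), Jak1 was at -0.31 (adjusted p = 0.36), and Il2ra had 3 UMIs in Klrc1-only cells.

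Class I genes, the ligand side, were higher where they changed. Of 20 class I and peptide loading genes, 7 were higher and 0 lower (median 0.32). B2m, the shared light chain, was at 2331, 2358 and 2333 CPM in Klrc1-only cells and 1807, 1899 and 1849 CPM in Ly49-only cells (0.35 ± 0.07, adjusted p = 0.0013). H2-T23, the NKG2A ligand, was at 163 ± 2.98 CPM in Klrc1-only cells and 138 ± 5.73 CPM in Ly49-only cells (0.24 ± 0.09, adjusted p = 0.12), and H2-K1 (0.11, adjusted p = 0.4) and H2-D1 (-0.01, adjusted p = 0.98) were not called. Without ILC1-marker cells 0 of 20 were called (median 0.16). Of 19 cell cycle genes tested, 7 were higher and 1 lower (median 0.68), among them Pclaf (1.19 ± 0.16) and Hist1h1b (0.83 ± 0.13). Both turned to the other direction without the deepest 10% of cells, at -1.01 for Pclaf and -1.71 for Hist1h1b.

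The 12 highest folds over all genes held ILC1 markers and other genes. At 20 CPM or more, Il7r, Ckb, Cxcr6 and Cd200r1 are on the ILC1 list, and the others were Fam184b, Serpinb1a, Tcrg-C4, Trat1, Acpp, Podnl1, Camk4 and Il2ra. Tcrg-C4, a constant segment of the T cell receptor gamma locus, was at 125, 148 and 109.6 CPM in Klrc1-only cells and 7.15, 9.52 and 9.16 CPM in Ly49-only cells (3.89 ± 0.16). Acpp, an acid phosphatase, was at 55.5, 57.8 and 71.4 CPM in Klrc1-only cells and 3.91, 3.14 and 6.54 CPM in Ly49-only cells (3.81 ± 0.26). Trat1, a T cell receptor adaptor, had a fold of 3.82 ± 0.35, and Camk4, a calcium-dependent kinase, one of 3.67 ± 0.24. Without ILC1-marker cells Acpp (3.71 ± 0.58) and Camk4 (3.05 ± 0.65) were called, while Tcrg-C4 (1.38, adjusted p = 0.7) and Trat1 (2.15, adjusted p = 0.6) were not. There, Fam184b, Serpinb1a, Podnl1 and Il2ra had at most 3 UMIs in Klrc1-only cells.

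Among the 12 lowest folds, Khdc1a stood at 17.0, 1.23 and 2.55 CPM in Klrc1-only cells and at 109, 118 and 111 CPM in Ly49-only cells (-4.16 ± 0.31, adjusted p = 1.2e-08). Mcam, an adhesion molecule, had 2 UMIs in all Klrc1-only cells and 542 in Ly49-only cells, a ratio of 0.0385 (exact 95% counting interval 0.00465 to 0.140). St5 had 3 and 636 UMIs, a ratio of 0.0492 (0.0101 to 0.144). Dcn, a matrix protein of stromal cells, had 1 and 726 UMIs, a ratio of 0.0144 (0.000363 to 0.0802), but stood at 3.10 CPM in tag 1 of the Ly49-only cells and 47.9 and 37.6 CPM in tags 2 and 3. With another draw of the thinning, Dcn was higher in Klrc1-only cells (1.55). Serpinb9b, Cdh22, Frmd5, Dgkh, Lyz2, Klra5, Klra6 and Klra10 made up the rest, with folds between -3.43 and -2.37.

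**Figure D4:**
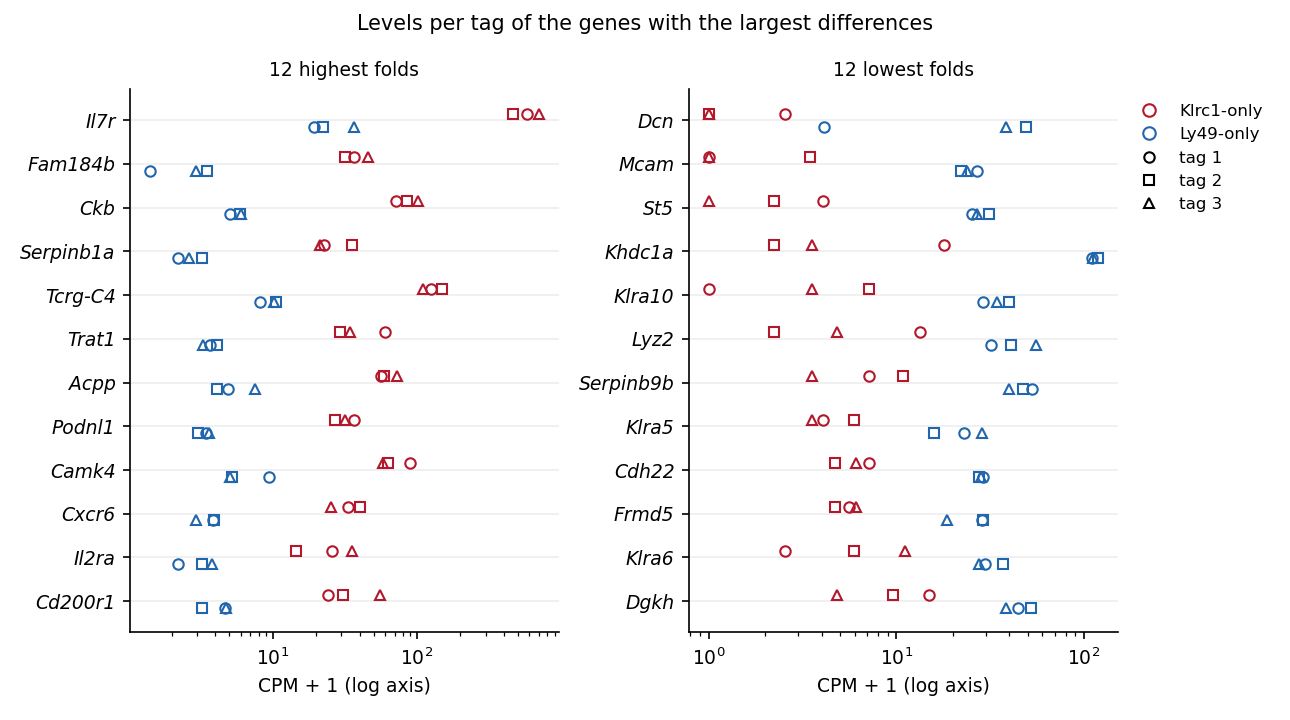
Levels (horizontal axis, CPM + 1, log axis) of the 12 genes with the highest (left) and the 12 with the lowest (right) log2 fold, in Klrc1-only (red) and Ly49-only cells (blue), 1 symbol per tag. The genes were picked by these same values, so that the classes lie apart is not a further result. For Dcn the Ly49-only cells of tag 1 lie at 3.10 CPM, far below the other 2 tags.

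In the 114 Klrc1-only cells without an ILC1-marker UMI, Cd226, Klrb1b and Gramd3 had the smallest p-values of the named higher genes. Cd226 was at 285, 435 and 278 CPM in these Klrc1-only cells and at 59.4, 76.2 and 93.4 CPM in Ly49-only cells (2.15 ± 0.17, adjusted p = 7.1e-16). Klrb1b was at 594, 650.4 and 511 CPM in Klrc1-only cells and 204, 187 and 183 CPM in Ly49-only cells (1.62 ± 0.13, adjusted p = 3.2e-15). Gramd3, a gene named for its membrane-binding domain, was higher as well (2.47 ± 0.19, adjusted p = 2.6e-16). Emb (1.12 ± 0.13), Thy1 (1.43 ± 0.25) and Cd28 (0.93 ± 0.18) from the early list were higher, as were Sox4 (2.80 ± 0.45), Gpr183 (2.60 ± 0.45) and S100a4 (1.90 ± 0.20). On the lower side stood Khdc1a (-4.22 ± 0.45), Klri2 (-1.40 ± 0.16), Kcnq5, a potassium channel gene (-1.10 ± 0.14), Entpd1 (-1.62 ± 0.34), Itgam (-0.68 ± 0.18) and the anti-death gene Bcl2 (-0.62 ± 0.14). Khdc1a had 4 UMIs in these Klrc1-only cells, all in tag 1. Rora was the 1 of 2 ILC1 markers still tested that was called (1.17 ± 0.22). With cells holding any of the 10 ILC1 markers left out, 32 genes were higher and 23 lower, and in cells with an Eomes UMI alone 55 were higher and 60 lower.

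Genes of other cell types and of the cell cycle were called among these 114 cells too. Car2, on the erythroid and platelet list, was at 500.6, 357 and 778 CPM in Klrc1-only cells and 187, 171 and 197 CPM in Ly49-only cells, a 2.95-fold difference (adjusted p = 2.1e-12). Car1, a carbonic anhydrase of red cells, was at 5.82, 18.6 and 1007 CPM in Klrc1-only cells and 41.3, 15.1 and 71.3 CPM in Ly49-only cells (2.34 ± 0.34), so its high level is that of tag 3. Stmn1 (0.78 ± 0.17) and Ccnb2 (2.05 ± 0.48) of the cell cycle list, Dut (1.20 ± 0.25), an enzyme of nucleotide supply for DNA synthesis, and Atpif1 (0.92 ± 0.20) were higher, and Cd74 (-1.32 ± 0.31) and Igkc (-1.29 ± 0.22) were lower. Without tag 3 Car1 (-0.89), Stmn1 (0.43), Dut (0.42), Ccnb2 (1.46), Atpif1 (0.19) and Cd74 (-1.18) were not called, whereas Car2 (1.21) was. The part of these transcripts in the other differences was not tested.

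Leaving out 1 tag changed the calls among the cells without an ILC1-marker UMI. Without tag 1, 44 genes were higher and 33 lower, without tag 2, 23 and 15, and without tag 3, 49 and 31. Cd226 (1.92 to 2.39), Klrb1b (1.53 to 1.67), Gramd3 (2.34 to 2.65), Ltb, S100a4, Ikzf2, Emb, Gpr183, Khdc1a, Klri2, Kcnq5, Gzmb, Itga4 and Cma1 were called with each tag left out in turn. Without tag 1, Khdc1a had no UMI left in Klrc1-only cells. Calls lost without tag 1 included those of Klrc2, Cd7, Ifng (0.27), Cxcr3, Zeb2, Bcl2, Ccnb2 and Cd74. Calls lost without tag 2 included those of Klrc2, Cd7, Ifng, Cxcr3, Bcl2, Itgam, Rora, Thy1, Cd28, Sox4, Entpd1, Cst7, Acpp, Camk4, Car1, Dut, Atpif1, Cd74 and Igkc. Calls lost without tag 3 also included those of Itgam, Cst7 and Socs2.

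**Figure D5:**
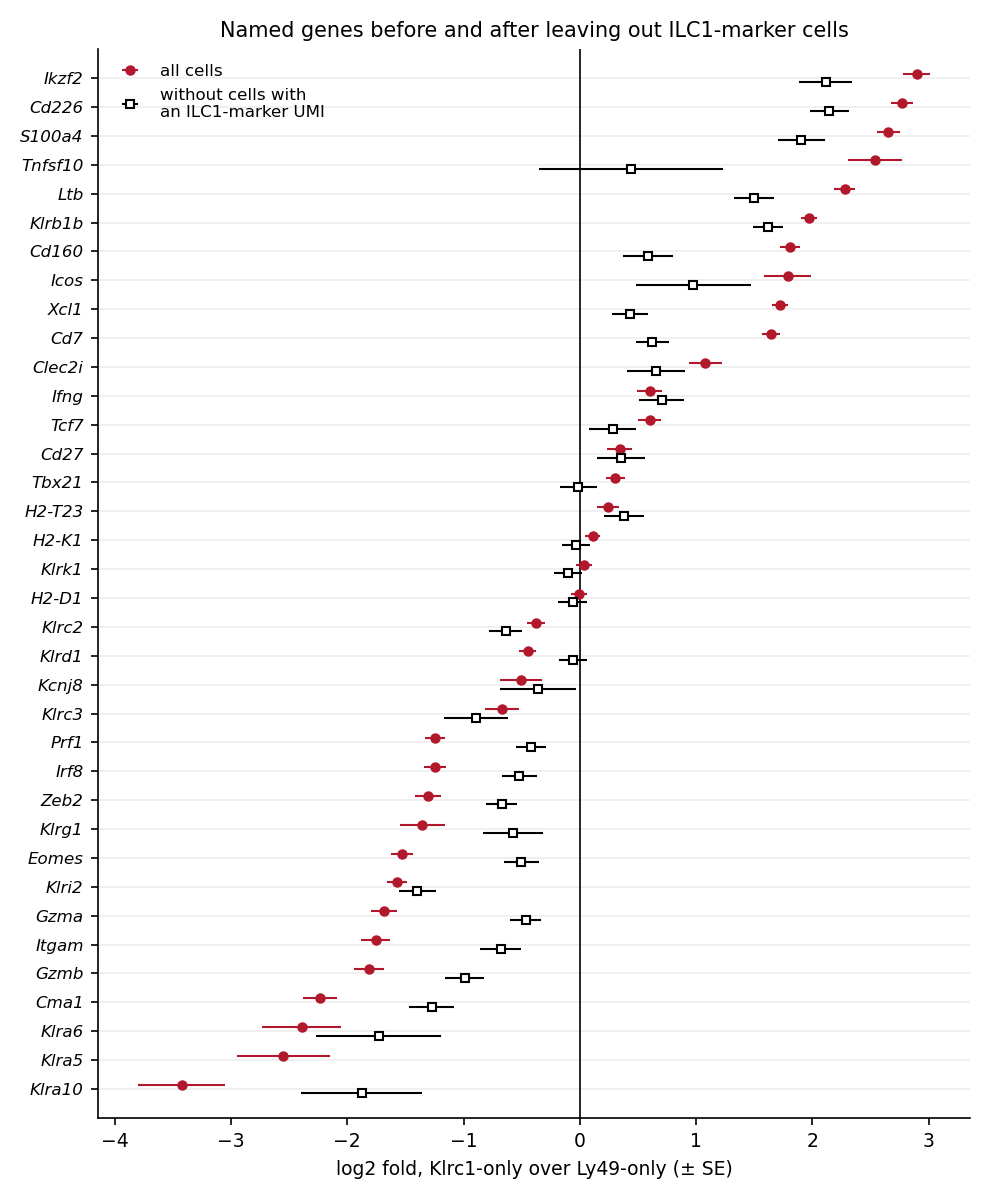
Log2 fold of Klrc1-only over Ly49-only cells ± SE (horizontal axis) for named genes, with all cells (red circles) and without cells with an ILC1-marker UMI (open squares, not drawn for Klra5, which had 2 UMIs). Cd226 is at 2.77 and 2.15 and Klrb1b at 1.97 and 1.62, whereas Gzma is at -1.68 and -0.47 and Eomes at -1.53 and -0.50.

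Cells with both receptors were set against Ly49-only cells, and all of them held at least 2 Ly49 genes. Their Ly49 transcripts were not equal. Klra4 was at 1224 ± 63.5 CPM in cells with both and 1992 ± 122 CPM in Ly49-only cells (SD, n = 3 tags). Exactly 2 Ly49 genes were held by 697 of the 1871 cells with both and 1080 of the 4613 Ly49-only cells, a larger share in cells with both. The part of these gaps in the differences below was not tested. Between the 1871 cells with both and the 4613 Ly49-only cells, 13 of 10607 genes (0.123%) were higher and 36 (0.339%) lower. Cd226 was at 136, 172 and 195.7 CPM in cells with both, against 69.0, 84.0 and 112 CPM in Ly49-only cells (0.93 ± 0.12, adjusted p = 0.00078). Klrb1b was at 355, 299.5 and 338 CPM in cells with both, against 207, 189 and 190 CPM in Ly49-only cells (0.75 ± 0.10, adjusted p = 0.001). Rab27b, a vesicle transport gene, had the smallest p of the higher genes in that comparison, at 58.8, 48.0 and 39.9 CPM in cells with both and 28.8, 22.2 and 20.8 CPM in Ly49-only cells (1.03 ± 0.11, adjusted p = 0.00024). Icos, Il7r, Thy1, Dtx1, Hopx, Gramd3, Slco3a1, St6galnac3, Hs3st3b1 and Gm36723 were the others. Igkc and Cd74, transcripts of other lineages, were among the lower genes. Cd74, the class II invariant chain, was at 101, 46.2 and 90.2 CPM in cells with both and at 358, 208 and 162 CPM in Ly49-only cells (-1.66 ± 0.27). Of the myeloid and dendritic markers, 5 of 9 tested were lower in cells with both; their part in the other differences was not tested. Of the late NK, granule, adaptor, class I and cell cycle lists, 0 members were called, and 501 of all genes tested had an unadjusted p under 0.05 in edgeR.

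These calls depended on the tags. Without tag 1, 6 genes were higher and 16 lower. Without tag 2, 0 genes were higher and 0 lower in edgeR, with 339 genes at an unadjusted p under 0.05. Without tag 3, 16 genes were higher and 48 lower. Without ILC1-marker cells 4 of 9741 genes (0.0411%) were higher and 3 (0.0308%) lower, and Rab27b (1.02 ± 0.12), St6galnac3, Icos and S100a9 were the 4. Cd226 (0.86 ± 0.24, adjusted p = 0.96) and Klrb1b (0.70 ± 0.22, adjusted p = 1.0) had folds close to those with all cells and were not called.

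Among cells with no Ly49 gene, Klrc1-only cells were set against the 232 cells with neither receptor. Of 10607 genes, 1061 (10.0%) were higher and 1426 (13.4%) lower in Klrc1-only cells. With counts thinned to 1 depth per cell, 140 were higher and 231 lower. Cd74 was at 327, 118 and 477 CPM in Klrc1-only cells and at 3398, 2358 and 2156 CPM in cells with neither (-3.21 ± 0.28), so class II transcripts move with this comparison, and their part in it was not tested. Of the 13 genes higher in cells with both than in Ly49-only cells, 12 were also higher in Klrc1-only cells than in cells with neither. Of the 36 lower genes, 32 were also lower there. The 3 gate genes were at lower levels in cells with neither as well. Ncr1 was at 474 ± 102 CPM in cells with neither and 964 ± 109 CPM in Klrc1-only cells (SD, n = 3 tags). In the same order, Klre1 was at 333 ± 122 and 638 ± 66.4 CPM, and Klrb1c at 426 ± 82.9 and 856 ± 115 CPM. The part of these gaps in the overlap was not tested. Cd226 was at 593 ± 35.6 CPM in Klrc1-only cells and 293 ± 51.1 CPM in cells with neither (0.97 ± 0.13, adjusted p = 7.6e-05), and Klrb1b at 779, 772 and 738 CPM in Klrc1-only cells and 399, 356 and 260.2 CPM in cells with neither (1.14 ± 0.11). ILC1-marker transcripts were found in 62.6% of thinned Klrc1-only cells and 54.7% of cells with neither. Without ILC1-marker cells 429 genes (4.40%) were higher and 878 (9.01%) lower. Without tag 2 the counts were 584 and 808, and without tag 3 they were 433 and 657. In the test of whether the step that goes with Klrc1 differs between cells without and with Ly49 genes, 3.84% of genes had a higher and 3.42% a lower step without Ly49 genes, and 0.852% and 2.18% did without ILC1-marker cells.

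Kcnj8, which encodes Kir6.1, the potassium channel subunit the series concerns, was low in both classes. It stood at 26.2, 33.2 and 26.8 CPM in Klrc1-only cells and at 45.2, 38.5 and 40.7 CPM in Ly49-only cells. The difference did not pass the test (-0.50 ± 0.18, adjusted p = 0.094), although the classes do not overlap. A thinned UMI was present in 8.21% of Klrc1-only cells and 10.6% of Ly49-only cells, and in 0 of 376 B cells.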

How the data were processed

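The authors deposited raw UMI counts of 32285 genes and 3 lipid tags in 16384 barcodes, made with Cell Ranger, whose version is 7.0.0 per the file headers. Seurat and the build mm10 are named besides it in the submitters' processing notes. Whether intronic reads were counted is not given in the sources used here. Everything else was computed here from those counts.

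A first filter, 500 to 6000 genes and no more than 10% mitochondrial UMIs, left 15742 barcodes. Of these, 11692 were above exactly 1 tag cutoff (140, 196 and 138 counts for tags 1, 2 and 3). The 3540 above several cutoffs were left out as likely doublets, as were the 510 above none; doublets within a tag remain. The NK gate kept 8978 cells, and 7950 had at least 2500 UMIs. Unthinned UMIs were summed per class and tag: from 648253 to 812542 per Klrc1-only sum and from 6115634 to 9876184 per Ly49-only sum. In R 4.3.3, edgeR 4.0.16 and limma 3.58.1 fitted a quasi-likelihood model to the sums, with TMM factors, filterByExpr and a block for tag, and p-values were adjusted by Benjamini-Hochberg (threshold 0.05). The block pairs the classes because sums of 1 tag come from cells tagged together; 2 residual degrees of freedom remain. The 12 genes of the rule stayed in library sizes but were not tested. Other receptor classes came from a fit of 4 classes. DESeq2 1.42.0 was an alternative. The steps were tested on simulated data. Intervals cover counting error only.

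The cells and gene lists were chosen with earlier results of these data known. Named genes were the 12 highest and 12 lowest folds among called genes with 3 of 3 tags in 1 direction and at least 20 CPM, up to 4 called members per list with the smallest p, and a fixed set of receptors, factors and effectors; other genes were named after their values were seen. The other GEO sample was not analysed here.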

Additional observations from a re-analysis of the deposited data

Results flagged for a closer look

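The difference that goes with Klrc1 depended on the Ly49 background. It was tested as an interaction in edgeR, the step from neither receptor to Klrc1-only minus the step from Ly49-only to both. The step was higher without Ly49 genes for 407 of 10607 genes (3.84%) and lower for 363 (3.42%). Without tag 2 the counts were 42 and 35, without tag 1 they were 83 and 76, and without tag 3 they were 220 and 163. They were 65 and 74 with thinned counts, 167 and 138 with no replicate block, and 83 and 212 without ILC1-marker cells. The cells with neither receptor hold class II transcripts such as Cd74 at 2637 ± 666 CPM (SD, n = 3 tags). Cd74 was at 307 CPM in Klrc1-only cells, 79.1 CPM in cells with both and 243 CPM in Ly49-only cells, and its part in these counts was not tested.

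Hopx, a homeodomain cofactor gene, was the 1 gene of the 13 higher in cells with both than in Ly49-only cells whose step differed between the backgrounds. Its step was 1.56 without Ly49 genes and 0.52 with them, a difference of 1.04 ± 0.20 SE on the log2 scale (adjusted p = 0.0073). It stood at 238 CPM in Klrc1-only cells and 81.9 CPM in cells with neither, and at 141 CPM in cells with both and 98.1 CPM in Ly49-only cells.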

How the results depend on the processing

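Of the 574 higher and 475 lower genes between Klrc1-only and Ly49-only cells, DESeq2 called 338 and 230, at least 2 Klrc1 UMIs gave 379 higher, and leaving out 1 tag gave 364 to 547 and 355 to 416. Counts were 442 and 349 with no replicate block. They were 54 and 47 without the 4 ILC1 markers, 24 and 20 in Itgam-positive, Cd27-negative cells and, as alternatives chosen after seeing the data, 32 and 23 without any of 10 ILC1 markers, 41 and 28 without cells with UMIs of other lineages and 55 and 60 in cells with Eomes. These keep fewer cells. Without the 4 ILC1 markers, leaving out 1 tag as well gave 23 to 49 and 15 to 33, also chosen after seeing the data. Other alternatives stayed within 1.5 times.

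Klrc1-only against neither (1061 and 1426) gave 140 and 231 with thinned counts, 429 and 878 without ILC1-marker cells, and 433 to 903 and 657 to 1243 without 1 tag. Both against Ly49-only (13 and 36) gave 6 and 1 with no replicate block, 22 and 22 with thinned counts, 21 lower with DESeq2, 4 and 3 without ILC1-marker cells, and 0 to 16 and 0 to 48 without 1 tag. The interaction (407 and 363) gave 167 and 138 with no replicate block, 65 and 74 with thinned counts, 83 and 212 without ILC1-marker cells, and 42 to 220 and 35 to 163 without 1 tag. With another thinning draw, 28.9% of the few cells with 6 Ly49 genes held Klrc1, against 13.9%, and 6.04% of Ly49-only cells held both Cd27 and Itgam, against 6.46%. The causes were not tested.

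Of the named genes, 16 changed sign in 37 values. With another thinning draw this was Dcn (1.55); without the deepest 10% of cells Pclaf (-1.01), Hist1h1b (-1.71) and H2-D1 (0.026); without cycling cells Hist1h1b (-1.34) and H2-D1 (0.039). In Itgam-positive, Cd27-negative cells they were Ifng (-0.028), Pdia3 (-0.090), Hist1h1b (-2.62), Klrk1 (-0.099), Tbx21 (-0.21), H2-T23 (-0.69), H2-K1 (-0.062) and Kcnj8 (0.011). Without UMIs of other lineages they were Syk (0.15), Cd247 (0.030), Hist1h1b (-0.72), H2afz (0.017), Klrd1 (0.0075) and Klrk1 (-0.12). In cells with Eomes, Hist1h1b was at -0.79. Without 4 ILC1 markers they were H2afz (0.16), Klrk1 (-0.10), Tbx21 (-0.013) and H2-K1 (-0.032), and without any of 10 H2afz (0.24), Klrk1 (-0.22), Cd27 (-0.11), Tbx21 (-0.098) and H2-K1 (-0.054). Klrk1 was at -0.030 with no filter and -0.032 with thinned counts. The H2-D1 log2 fold was 0.046 with thinned counts, 0.0058 with 2 Klrc1 UMIs, 0.014 with 1 Ly49 gene, 0.019 in Itgam-negative cells and between -0.048 and 0.029 without 1 tag.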
